A study of Mus musculus with 10 samples.

Results

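The 16568 regions described here are ATAC-seq peaks of mouse embryonic stem cells that lie wholly inside an H3K4me3 ChIP-seq peak at a protein-coding promoter. They are 9.58% of the 172958 ATAC-seq peaks on chromosomes 1 to 19, and the whole list of the series holds 179109 peaks. The members were selected on the deposited peak positions. An H3K4me3 peak was taken as a promoter peak where it overlapped the window of 1 kb either side of the start of a protein-coding transcript in GENCODE, and an ATAC-seq peak was a member where neither end crossed the edge of such a peak. By this rule 15296 of 32496 H3K4me3 peaks (47.1%) were promoter peaks, and 11913 of them held at least 1 member and are called hosts below. That members sit in H3K4me3 near coding starts was therefore fixed by the selection, as was the bound that a member cannot be wider than its host.

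The cells were F123 embryonic stem cells, a hybrid mouse line from a cross of Mus musculus castaneus with S129/SvJae, untreated, grown on irradiated CF1 mouse embryonic fibroblast feeders and passaged once without feeders before harvest. The series comprises 10 samples from this line, and 4 of them stand behind the 2 peak lists used here: 2 biological replicates of ATAC-seq from 100000 cells each and 2 of H3K4me3 ChIP-seq from 2000000 cells each. Both lists cover their replicates jointly, so no value below has a replicate spread, read depth is unknown and no difference was tested. Intervals are 95% Wilson intervals for shares and 95% order-statistic intervals for medians, and they cover counting error only, with neighbouring peaks taken as independent.

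Trimethylation of histone H3 at lysine 4 is placed by SET1 and MLL complexes on nucleosomes around active and poised promoters, and in mammals it is broadest over unmethylated CpG islands. ATAC-seq uses the Tn5 transposase to cut DNA that is not wrapped or bound tightly, so a peak marks accessible DNA. At a transcribed promoter the accessible stretch is the nucleosome-depleted region where RNA polymerase II and general factors assemble, and the modified nucleosomes lie on its sides.

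Sequences of members over the main coding starts of 3 pluripotency genes are shown first, because they differ in the CpG content next to the start. Pou5f1 and Nanog encode core transcription factors of pluripotency, and Sox2 encodes their partner. Each line gives the stretch of the member immediately upstream of the first annotated exon, read in the direction of transcription from the GRCm38 (mm10) assembly, with exon sequence left out. Capitals mark words of the motif list described below.
Pou5f1, chr17:35505724-35506017, plus strand: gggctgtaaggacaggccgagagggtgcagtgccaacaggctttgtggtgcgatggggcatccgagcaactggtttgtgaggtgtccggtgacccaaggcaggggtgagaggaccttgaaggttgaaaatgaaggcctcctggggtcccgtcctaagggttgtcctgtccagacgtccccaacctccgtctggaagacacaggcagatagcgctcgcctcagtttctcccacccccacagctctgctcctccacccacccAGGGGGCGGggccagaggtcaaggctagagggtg
Sox2, chr3:34650105-34650404, plus strand: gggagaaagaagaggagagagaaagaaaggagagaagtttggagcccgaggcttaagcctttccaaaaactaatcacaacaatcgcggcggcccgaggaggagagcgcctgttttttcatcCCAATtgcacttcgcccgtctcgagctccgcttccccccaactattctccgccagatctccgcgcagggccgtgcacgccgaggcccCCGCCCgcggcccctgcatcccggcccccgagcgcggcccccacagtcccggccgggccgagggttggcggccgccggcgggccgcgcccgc
Nanog, chr6:122707189-122707488, plus strand: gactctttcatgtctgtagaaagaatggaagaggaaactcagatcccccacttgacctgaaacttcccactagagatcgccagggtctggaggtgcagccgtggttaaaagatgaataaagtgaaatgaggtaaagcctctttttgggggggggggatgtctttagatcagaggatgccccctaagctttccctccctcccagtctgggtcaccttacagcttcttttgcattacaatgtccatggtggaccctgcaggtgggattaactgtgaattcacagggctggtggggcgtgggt
The 300 bases at Sox2 held 33 CG dinucleotides and the 300 bases at Nanog held 3. The 294 bases at Pou5f1 held 10. In Pou5f1 the capitals are an overlapping AGGGGGCG and GGGCGG that begin 34 bp and 31 bp upstream of the start. In Sox2 a CCAAT begins 179 bp and a GGGCGG, on the other strand, 92 bp upstream. None of the words was present letter for letter in the Nanog stretch, and near matches were not searched for.

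A further such sequence is that of Olig2, a neural lineage regulator that is also covered by H3K4me3 in these cells, and it is shown as a developmental gene with the same layout.
Olig2, chr16:91225157-91225456, plus strand: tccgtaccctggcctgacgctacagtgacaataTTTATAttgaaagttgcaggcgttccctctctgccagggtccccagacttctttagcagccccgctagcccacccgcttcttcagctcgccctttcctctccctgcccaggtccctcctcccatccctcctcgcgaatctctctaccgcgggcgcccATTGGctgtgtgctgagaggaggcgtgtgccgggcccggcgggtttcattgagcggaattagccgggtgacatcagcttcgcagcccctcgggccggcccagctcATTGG
Its 300 bases held 20 CG dinucleotides, 2 CCAAT words on the other strand and 1 TATAAA on the other strand 267 bp upstream of the start. Rplp0, which encodes a ribosomal stalk protein, had a promoter H3K4me3 peak without a member, so no sequence is shown for it.

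Members that cover no coding start are called flanking members, and 3 of those in hosts of pluripotency genes are shown for contrast. They were chosen after their values were seen, as exon-free members of at most 300 bp that hold different words.
Sox2 flanking, chr3:34653934-34654184, plus strand: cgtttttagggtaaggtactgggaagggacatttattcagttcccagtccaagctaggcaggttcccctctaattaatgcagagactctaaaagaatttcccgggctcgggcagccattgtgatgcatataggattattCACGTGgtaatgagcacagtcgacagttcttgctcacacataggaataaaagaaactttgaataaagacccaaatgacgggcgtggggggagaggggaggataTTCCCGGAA
Sall4 flanking, chr2:168766302-168766518, minus strand: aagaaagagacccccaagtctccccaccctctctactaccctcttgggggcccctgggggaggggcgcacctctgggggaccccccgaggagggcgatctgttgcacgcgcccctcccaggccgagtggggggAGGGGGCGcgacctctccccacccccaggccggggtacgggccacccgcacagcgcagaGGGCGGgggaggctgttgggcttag
Tet1 flanking, chr10:62883924-62884054, minus strand: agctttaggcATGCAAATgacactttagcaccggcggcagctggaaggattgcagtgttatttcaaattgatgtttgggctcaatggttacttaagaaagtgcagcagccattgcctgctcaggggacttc
The Sox2 flanking member lies 3654 bp downstream of the start, past the end of the gene, and holds a CACGTG and a TTCCNGGAA. The Sall4 member lies in an intron 619 bp downstream of the nearest start and holds 13 CG dinucleotides in 217 bases. The Tet1 member lies in an intron 3335 bp downstream and holds an ATTTGCAT, read here on the other strand, with 2 CG dinucleotides in 131 bases.

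Most hosts held a single member. Of the 15296 promoter peaks, 77.9% (77.2 to 78.5) held a member, a further 2979 were touched only by ATAC-seq peaks that crossed their edge, and 404 overlapped no ATAC-seq peak. Hosts had 1.39 members on average: 8643 hosts had 1, 2331 had 2, 642 had 3 and 297 had 4 or more. Hosts with at least 2 members made up 27.4% (26.7 to 28.3) of all hosts, and when the narrower 50% of ATAC-seq peaks were left out this share was 14.4%. Members that shared a host were 7925 of 16568 (47.8%).

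Hosts with more members were wider, while their H3K4me3 enrichment was about the same up to 4 members and mostly somewhat lower beyond. Hosts with 1 member had a median width of 2043 bp, those with 2 of 2634 bp, those with 3 of 3490 bp and those with 4 of 4531 bp. The median fold enrichment of H3K4me3 over background in the same hosts was 30.6, 30.7, 28.4 and 28.5. It was 26.6 in the 58 hosts with 5 members and 25.4 in the 23 with 6. The 4 hosts with 7 had 25.7 and the 5 with 8 had 33.0. Hosts with 10 and 11 members, 1 each, had 20.2 and 27.2. Over 11913 hosts, Spearman's rho of the number of members was 0.42 with host width and -0.00303 with fold enrichment, given as a description because hosts share the 2 lists. Promoter peaks without a member had a median width of 952 bp (923 to 986), against 2225 bp (2203 to 2246) for hosts, and a median fold enrichment of 10.5 against 30.5, and containment itself favours wide peaks.

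Among the narrowest 1530 promoter peaks, of 221 to 776 bp, 11.2% held a member, although 81.0% were touched by an ATAC-seq peak. In the sixth decile of width, from 1985 to 2228 bp, 92.7% held a member. In the widest, from 3586 bp upwards, 98.8% did and 65.9% held at least 2. The density of members was 0.221 per kb of H3K4me3 peak in the narrowest decile, 0.558 in the third and 0.485 in the widest. In the widest decile the median of the widest member was 1082 bp while the median over all its members was 541 bp, so the additional members there were narrow ones.

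**Figure D1:**
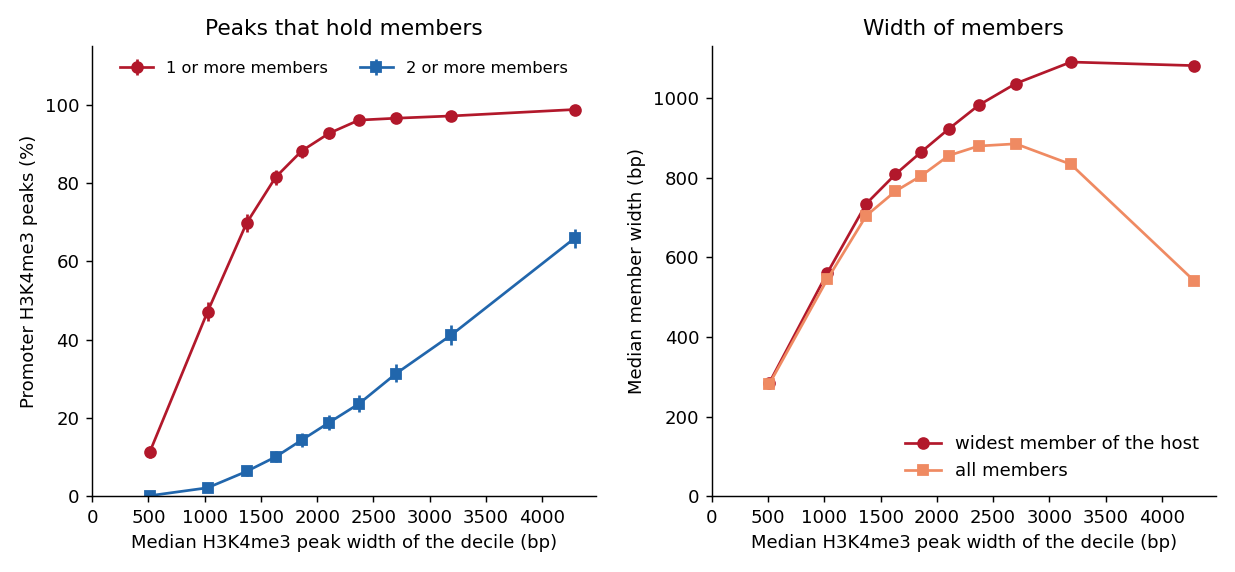
Promoter H3K4me3 peaks in deciles of width (about 1530 peaks each), plotted at the median width of each decile in bp. Left, the percent of peaks with 1 or more and with 2 or more members, with 95% Wilson intervals as bars. Right, the median width in bp of all members and of the widest member of each host. The share with 2 or more members rises to 65.9% in the widest decile, where the median of all members falls to 541 bp and that of the widest member stays at 1082 bp.

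Members were wide for ATAC-seq peaks, and the width depended on whether a coding start was covered. The median width was 755 bp (745 to 764), with the central 50% between 363 and 1040 bp and a range of 73 to 2835 bp. A coding start lay inside 11368 members (68.6%, 67.9 to 69.3), called start members, and their median width was 910 bp (904 to 917). The 5200 flanking members had a median of 240 bp (232 to 248). Start members were wider than 500 bp in 89.8% of cases and flanking members in 20.4%. Of members of at most 200 bp, 8.21% covered a coding start, and of those over 1000 bp, 95.8% did.

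A wide interval covers a start more readily than a narrow one, so width was also read by the distance of the midpoint from the nearest coding start. The median was 841 bp for the 6219 members with a midpoint within 100 bp, 907 bp for midpoints over 100 and up to 250 bp away, 880 bp up to 500 bp, 257 bp up to 1000 bp and 284 bp up to 2000 bp. The change thus lay between the interval that ends at 500 bp and the next one, and these intervals do not place it more closely. The 23.9% of members between 100 and 250 bp away were no narrower than those centred on the start.

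ATAC-seq peaks elsewhere on the same chromosomes had other widths. Peaks wholly inside an H3K4me3 peak that is no promoter peak (6779) had a median of 387 bp (379 to 399). Peaks without H3K4me3 had a median of 234 bp (229 to 241) where the midpoint was within 1 kb of a coding start (3413) and of 230 bp (229 to 231) farther away (132907). The flanking members were therefore nearer in median width to accessible sites outside H3K4me3 than to the start members as a whole. By definition a flanking member reaches over no coding start, which limits its width. The differences between these sets were not tested, since each list stands for both replicates.

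**Figure D2:**
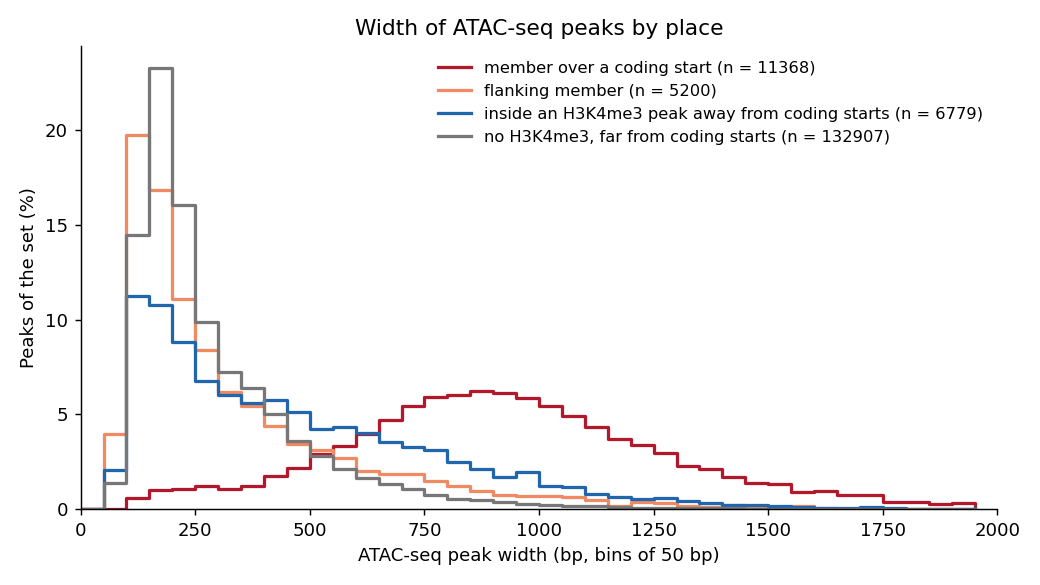
Distribution of ATAC-seq peak width in bins of 50 bp up to 2000 bp, as the percent of each set. Members over a coding start spread around a median of 910 bp. Flanking members, with a median of 240 bp, lie near the peaks far from coding starts without H3K4me3, with a median of 230 bp. The flanking members spread more widely, with 20.4% over 500 bp against 12.5%. Peaks inside H3K4me3 away from coding starts have a median of 387 bp, between those of flanking members and of members over a coding start.

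Members were centred near the coding start and near the H3K4me3 summit, the position of highest ChIP-seq signal in the host. The median distance from the midpoint of a member to the nearest coding start was 160 bp (156 to 164), and to the summit 227 bp (222 to 232). For start members these distances were 89 bp and 162 bp, and for flanking members 853.5 bp and 793 bp. The summit lay inside 63.7% of members, namely 86.6% of start members and 13.4% of flanking members. Seen from the hosts, the summit lay in a member in 88.5% (87.9 to 89.1), although members covered a median of 44.5% of the host's length.

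Where hosts were shared, the members mostly divided into a wide member over the start and narrow ones beside it. Because a wide interval covers a start more readily than a narrow one, the shares that follow include this difference in width. The widest member of the 3270 shared hosts covered a coding start in 81.5% and had a median width of 880 bp, and the other 4655 members covered a start in 17.3% and had a median width of 226 bp. In the 2569 shared hosts with exactly 1 start member, it was the widest in 87.6% (86.3 to 88.8) and the closest to the summit in 82.3% (80.8 to 83.8). Neighbouring members of a host were 233 bp apart from edge to edge and 840 bp apart from midpoint to midpoint in the median. Hosts with 2 or more start members were rare (436, or 3.66%).

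The arrangement was read by direction of transcription in 5818 hosts whose coding starts all belonged to 1 gene, fell within 50 bp and lay in the host. The H3K4me3 peak reached a median of 696 bp upstream of the start and 1340 bp downstream. The start member reached 348 bp (344 to 353) upstream and 514 bp (507 to 520) downstream, and in 70.5% it extended farther downstream. Its midpoint lay a median of 81 bp downstream of the start. Both intervals were thus shifted in the direction of transcription, the H3K4me3 peak by more.

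The H3K4me3 summit lay downstream of the start in 88.8% (88.0 to 89.6) of these hosts, at a median of 191 bp (188 to 194). A single 100-bp interval, from 150 to 250 bp downstream, held the summit of 37.6% of the hosts, and the interval from 50 bp upstream to 50 bp downstream held that of 3.56%. The start member contained the summit in 90.7% of 5333 cases. In 81.5% the summit was in its part downstream of the start, in 9.13% in its upstream part, and in 7.63% beyond its downstream end.

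The share of these hosts with a member over a given position was 91.7% at the start itself. It was 64.7% at 250 bp upstream against 85.5% at 250 bp downstream, and 24.0% against 54.7% at 500 bp. At 1000 bp it was 4.00% upstream and 13.6% downstream.

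**Figure D3:**
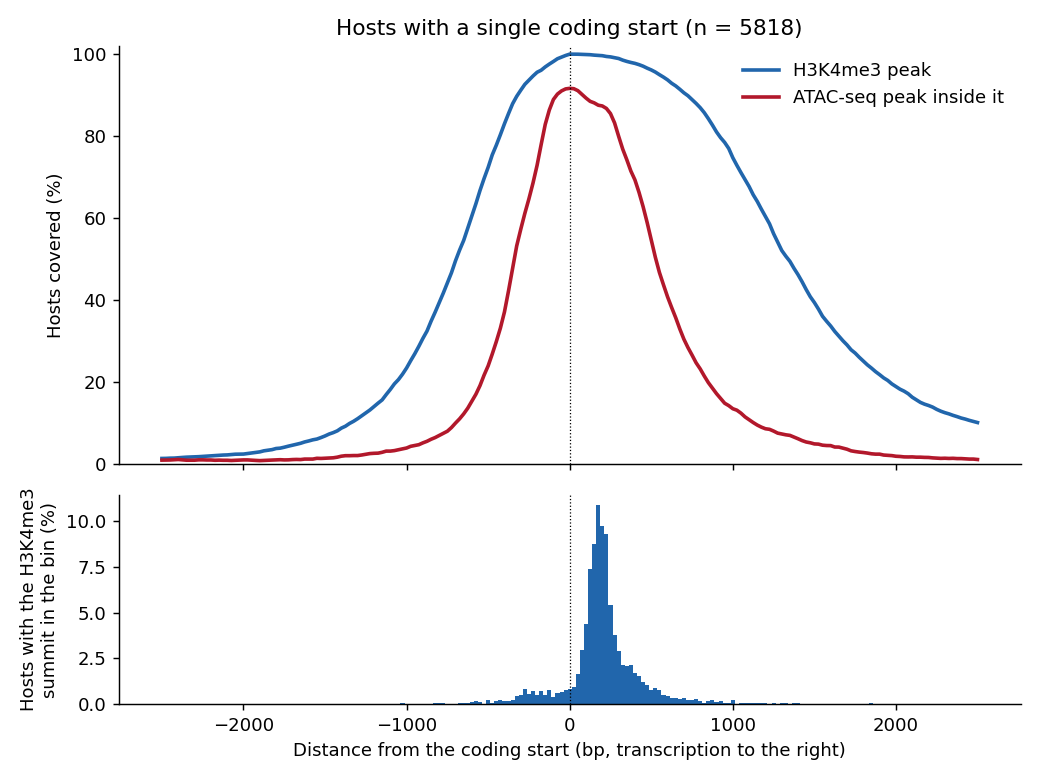
Hosts with a single coding start (n = 5818), aligned at the start with transcription to the right. Top, the percent of hosts in which the H3K4me3 peak or a member covers each position at steps of 25 bp. Bottom, the percent of hosts with the H3K4me3 summit in each 25-bp bin. The member curve peaks at 91.7% at the start and reaches farther downstream than upstream, and the summits gather at a median of 191 bp downstream, inside the region that members cover.

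Start members over coding starts of both strands were somewhat wider than the others. Hosts with coding starts on both strands numbered 1171 (9.83%) and had a median width of 2675 bp, against 2167.5 bp for the others. The 958 start members over coding starts of both strands had a median width of 1000 bp (979 to 1021), against 899 bp (891 to 907) for those over starts of 1 strand. Members over a single start position had a median of 861 bp and those over 5 or more had 990 bp. Annotation of more starts and a wider member cannot be told apart from wide members covering more starts.

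Flanking members lay mostly downstream of the start. Of the 5200, 65.9% (64.6 to 67.2) had their midpoint downstream of the nearest coding start, at a median of 921.5 bp, and 34.1% upstream, at a median of 750 bp. The H3K4me3 peak that holds them is longer downstream, as given above. Downstream ones had their midpoint in an intron of a coding transcript in 70.6% and in coding sequence in 19.5%. Upstream ones lay outside protein-coding transcripts in 68.5%. The widths were alike, 249 bp downstream and 226 bp upstream.

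Most flanking members (3779, 72.7%) shared their host with a start member, and these had a median width of 220 bp (214 to 227). The 745 that were alone in their host were wider, 319 bp (286 to 349), and lay closer to the summit, at a median of 207 bp, which 43.5% of them covered against 5.95% of those beside a start member. A noncoding transcript start was covered by 484 flanking members (9.31%). Their median width was 453.5 bp (411 to 518), against 226 bp (220 to 234) for the 4716 that covered no annotated start. Among these 484, starts of processed transcripts occurred in 176, of retained-intron transcripts in 144, of antisense transcripts in 89 and of lincRNAs in 37, and a member can cover several.

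Within the host, lone members kept to the middle. The midpoint lay in the central 20% of the host width in 51.9% of the 8643 single members, and in the outermost 20% at either end in 0.833% and 0.949%. Flanking members were spread over the 5 segments, with 16.6%, 22.1%, 20.7%, 24.2% and 16.4%. A wide interval inside a host cannot be centred near its edge, so the comparison of single and flanking members includes their difference in width.

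Members were rich in CpG, and again the start members set the level. The ratio of observed to expected CpG is 1 where CpG is as frequent as a random order of the same bases would give. Most of the mouse genome is far below that because methylated cytosines are lost by mutation. The ratio was taken over the central 200 bp of each peak so that width did not enter. The median was 0.843 (0.837 to 0.847) in start members, 0.507 (0.497 to 0.517) in flanking members, 0.498 (0.490 to 0.505) in ATAC-seq peaks inside other H3K4me3 peaks, 0.232 (0.223 to 0.242) in peaks without H3K4me3 near a coding start and 0.191 (0.190 to 0.192) in those far from one. GC content followed the same order with medians of 68%, 58.5%, 57.5%, 54% and 51%. Around all 52099 annotated coding start positions the CpG ratio was 0.593 and GC content 59%.

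Both a GC content of at least 50% and a CpG ratio of at least 0.6, as in common definitions of a CpG island, were met by 82.1% of start members, 36.0% of flanking members and 4.2% of peaks far from coding starts without H3K4me3. Wide members had more CpG: the median ratio was 0.453 in members of at most 200 bp, 0.746 from 400 to 800 bp and 0.904 over 1200 bp. Over 16568 members Spearman's rho between width and CpG ratio was 0.52. The CpG ratio also fell with distance of the midpoint from the start, but more gradually than the width. It was 0.853 within 100 bp and 0.820 over 100 and up to 250 bp. Farther away it was 0.729 over 250 and up to 500 bp and 0.524 over 500 and up to 1000 bp. How far the CpG content and the width depend on each other through ATAC-seq signal was not tested.

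**Figure D4:**
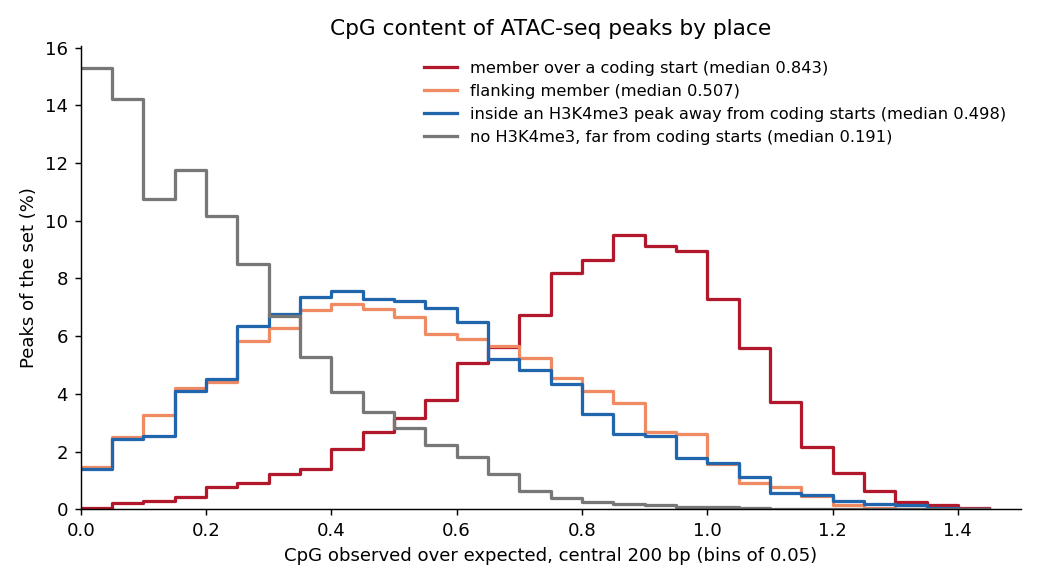
Distribution of the CpG observed over expected ratio in the central 200 bp of each ATAC-seq peak, in bins of 0.05, as the percent of each set. Members over a coding start lie around 0.843. Flanking members and peaks inside H3K4me3 away from coding starts follow nearly the same curve with medians of 0.507 and 0.498, and peaks far from coding starts without H3K4me3 lie near 0.191.

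The motif list held 13 words, each spelled out with its shares below, and all were searched on both strands of the same 200 bp. GGGCGG and AGGGGGCG can overlap. A match is a description of the letters and not of a bound factor. Windows of 200 bp around all annotated coding starts served as background. These are centred on the start, whereas the windows of members are centred on the peak midpoint, which mostly lies elsewhere. Shares in members and at coding starts therefore refer to different positions relative to the start. What this does to words with a fixed place near the start, such as TATAAA and CCAAT, was not tested.

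GGGCGG, the core of the GC box that Sp1 and KLF factors bind, was in 57.4% (56.5 to 58.3) of start members, 30.6% of flanking members, 9.44% of peaks far from coding starts without H3K4me3 and 37.7% of all coding starts. CCGGAAGT, bound by ETS factors such as GABPA, was in 4.30% of start members, 0.615% of flanking members and 3.84% of all coding starts. GCATGCGC, from the NRF1 site, had 2.06%, 0.654% and 2.2%. TGACGTCA, the cAMP response element, had 1.64%, 0.519% and 1.59%, and CTCGCGAG had 0.994%, 0.192% and 0.795%. These 5 words, all with a CG, were more frequent in start members than in flanking members.

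Words without CG were not more frequent in start members than in flanking members. TATAAA was in 1.78% of start members, 3.19% of flanking members, 7.31% of peaks far from coding starts without H3K4me3 and 6.81% of all coding starts. ATTTGCAT, the octamer that POU factors such as Oct4 bind, was in 0.457% (0.349 to 0.599) of start members, 1.00% (0.763 to 1.31) of flanking members, 3.44% (3.34 to 3.54) of the far peaks and 0.797% of all coding starts. CAAGGTCA, the ESRRB site, had 0.361%, 1.04%, 1.95% and 0.779% in the same order. CCAAT differed less, with 18.2%, 19.3%, 25.1% and 24.4%. CACGTG, the E-box, holds a CG and had 5.30%, 5.60%, 3.56% and 5.08%. TTCCNGGAA, a STAT site, was in 0.589%, 0.712%, 0.680% and 0.829%. AGGGGGCG, part of the CTCF site, holds a CG and was in 6.95%, 4.98%, 1.87% and 5.01%.

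AAGATGGCG, the YY1 site, was in 2.02% of start members, 0.308% of flanking members, 2.73% of the far peaks and 1.77% of all coding starts. In start members 7 of the 230 matches lay in sequence that the assembly masks as repeats, and in the far peaks 3408 of 3628 (93.9%) did. Masked bases made up 5.51% of the central 200 bp of start members on average, 10.6% in flanking members and 33.7% in the far peaks. Start members with CCAAT were narrower (median 835 bp) than those without (929 bp), and those with GGGCGG wider (939 bp) than those without (866.5 bp). Medians were also higher with CTCGCGAG, AGGGGGCG and CAAGGTCA than without. With each remaining word they were lower, such as TATAAA (819 bp against 912 bp). Some of these differences were small or rested on few start members. TTCCNGGAA had 902 bp against 910 bp with 67 members, and CAAGGTCA had 934 bp against 910 bp with 41. The CpG ratio differed too, with 0.789 against 0.855 for CCAAT and 0.875 against 0.786 for GGGCGG. Its part in the widths was not tested.

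Hosts with higher H3K4me3 enrichment had wider start members, and about as many members. From the quartile of hosts with the lowest H3K4me3 fold enrichment (up to 20.4) to that with the highest (from 39.9), the median width of start members was 711, 896, 953 and 1004 bp. The mean number of members was 1.41, 1.42, 1.37 and 1.37. The CpG ratio of the members rose alongside, from 0.606 to 0.872, and so did host width, from 1620 to 2702 bp.

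By chromosome the values were similar, with chromosome 7 at the low end of several. The share of promoter peaks with a member ranged from 73.4% on chromosome 7 to 82.6% on chromosome 12, and the median width of start members from 838.5 bp on chromosome 7 to 986 bp on chromosome 12. The share of members over a coding start ranged from 64.6% on chromosome 7 to 74.1% on chromosome 9. Mean members per host ranged from 1.31 to 1.45. The CpG ratio was also lowest on chromosome 7 (0.704) and highest on chromosome 12 (0.815).

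At the level of genes, 12318 of 20698 protein-coding genes on the autosomes (59.5%) had a member in a promoter H3K4me3 peak at a start of theirs, and 11465 had it over their own start. All 20 genes of the pluripotency list did. Of 12 genes of liver, pancreas, heart and blood 0 did, which allows a share of up to 24.2% (Wilson interval). Developmental regulators did in 25 of 25, so a member at these genes does not tell the cell type. Of 15 fibroblast genes, which feeder cells would express, 9 did (60%), near the background. The part of feeder cells in the peaks was not tested. A peak says nothing of the level of expression.

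Other lists stood at 25 of 25 developmental regulators, 14 of 15 primitive endoderm and trophoblast genes, 14 of 15 autosomal housekeeping genes, 72 of 78 cytosolic ribosomal protein genes and 2 of 1126 olfactory receptor genes. Elf5, a trophoblast factor without a promoter H3K4me3 peak, was the gene without a member in its list, and Rplp0 in the housekeeping list. Among genes with a member, 2 or more were present in 14 of 20 pluripotency genes (70.0%), 19 of 25 developmental regulators (76.0%), 12 of 14 primitive endoderm and trophoblast genes (85.7%), 6 of 9 fibroblast genes (66.7%), 8 of 14 housekeeping genes (57.1%) and 32 of 72 ribosomal protein genes (44.4%), against 32.4% of all coding genes. The lists were made with earlier results of these data known, so these counts are a description.

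The pluripotency genes had 56 members in 24 hosts, of which 17 hosts had at least 2. Their widest member-holding hosts had a median width of 4836 bp, from 1274 bp at Dppa5a to 8186 bp at Sox2, and 17 of 20 were wider than the median host. The 22 members over a coding start had a median width of 646 bp, against 910 bp for all start members, and the 34 flanking ones of 283 bp. The CpG ratio of the central 200 bp of the 22 was 0.592 in the median, against 0.843.

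Among the core factors the layouts differed. Sox2 had a start member of 2567 bp, whose midpoint was 344 bp upstream of the start and which covered the summit, and a flanking member 251 bp wide. Nanog had a single member of 562 bp over its start, and the summit of its 4301-bp host lay 1089 bp from the midpoint, outside the member. Pou5f1 had a member of 376 bp over a start, with the summit 315 bp from its midpoint and outside it, and a member of 507 bp farther into the gene. In the central 200 bp the CpG ratio was 0.114 in the Sox2 start member, 0.158 in that of Nanog and 0.308 in that of Pou5f1, all below the lower quartile of start members (0.678). Over whole members the order was another, with 0.769 at Sox2, 0.248 at Nanog and 0.370 at Pou5f1.

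The Kruppel-like factors, which maintain the naive state, had start members with whole-member CpG ratios of 0.951 at Klf4, 0.895 at Klf5 and 0.781 at Klf2. Klf4 had one of 1120 bp and flanking members of 415 and 93 bp, Klf5 had 1091 and 195 bp, and Klf2 had a single member of 645 bp in a host of 4558 bp, with the summit 776 bp from its midpoint. Esrrb, a nuclear receptor of the same network, had 5 members over 2 hosts, of which those of 942 and 490 bp covered its starts. Tet1, an enzyme that oxidises methylcytosine, had 9 members over 3 hosts, from 131 to 1596 bp. Lin28a, a regulator of let-7 processing, had 6, of which only the one of 810 bp covered a coding start.

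Prdm14, Sall4, Tbx3, Zfp42 and Tdgf1 had hosts of over 5 kb. Prdm14, a repressor of differentiation signals, had 4 members of 340 to 549 bp in a host of 5338 bp. Sall4 had 5 of 201 to 721 bp in 7001 bp, of which 2 covered starts. Tbx3 had members of 184 and 856 bp in 7846 bp, Zfp42 members of 336 and 617 bp in 5764 bp, and Tdgf1, a co-receptor of Nodal, 3 members of 256 to 480 bp in 5526 bp. Utf1 was the single gene of the list with no member over its own start, with 1 member of 359 bp at 1900 bp downstream. Dnmt3l, Dppa5a and Tfcp2l1 had a single member each, of 647, 424 and 753 bp, over the start and the summit. Fgf4 had members of 673 and 304 bp, the second 3020 bp downstream of the start, and Dppa4 had 3, of which that over the start (221 bp) was narrower than its neighbour (600 bp).

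**Figure D5:**
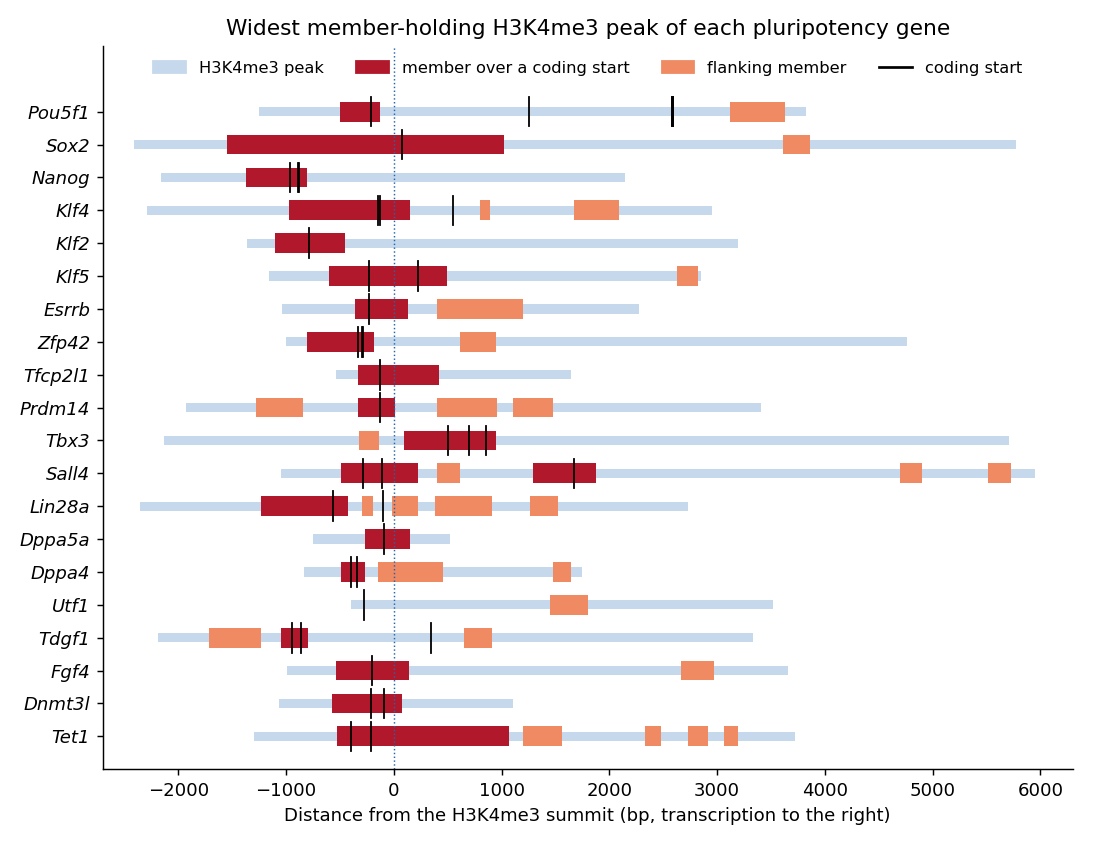
The widest H3K4me3 peak with a member at each of the 20 pluripotency genes, aligned at the H3K4me3 summit (dotted line) with transcription to the right, in bp. Thin bars are the H3K4me3 peaks, thick bars the members, and black ticks the coding starts. Most start members lie over the summit or upstream of it. That of Tbx3 and the one of 584 bp at Sall4 lie downstream. Sox2 has the widest at 2567 bp, and Utf1 has a flanking member alone.

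In the other lists, Otx2, a head and forebrain regulator, had 9 members over 3 hosts, and Pax6, an eye and neural regulator, had 6. Tfap2c had 7 in a host of 7670 bp, of 79 to 819 bp. Foxa2, an endoderm factor, had 5, of which that of 1005 bp covered its start. Gapdh, Ppia and Ubb had 3 each. Rpl23a shared a host of 8962 bp with Nek8 and Tlcd1, and its 3 members each covered the start of a different gene. Rpl11 and Rpl27 had promoter H3K4me3 peaks without a member. Among fibroblast genes, Col1a2, a type I collagen chain, had 3 members and Prrx1 and Pdgfra had 3 and 4, while Col3a1 and Col6a3 had no promoter H3K4me3 peak.

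Hosts with many members were wide ones. The host shared by Bcl11a and A830031A19Rik (chr11:24073992-24082736) held 10 members, of which those of 932 and 307 bp covered coding starts. Setd1b, a subunit of an H3K4 methyltransferase complex, had 8 members in 11177 bp (chr5:123134193-123145369), the widest of 728 bp. Hes7, Aloxe3 and 9130213A22Rik shared a host of 9697 bp with 8, and Zfp608 had 8 in 7916 bp, none over its start.

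The 5 widest members all covered a coding start and the summit. They were at Arid1b (2835 bp), Foxl2 (2833 bp), Rims2 (2740 bp), Nol4l (2709 bp) and Adrb1 (2680 bp), in hosts of 3293 to 4719 bp. Arid1b encodes a subunit of the BAF remodelling complex and Foxl2 an ovarian transcription factor. Sox2, with 2567 bp, came close to them.

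At the edges of the rule, members with an end within 10 bp of the host edge (147) had a median width of 698 bp (604 to 753), and ATAC-seq peaks that overhung the edge by at most 10 bp (134) had 676 bp (602 to 809). All 3852 ATAC-seq peaks that lay partly in a promoter peak had a median width of 664 bp and covered a coding start in 65.3%, close to the 68.6% of members. Their CpG ratio in the central 200 bp was 0.535 (0.517 to 0.555), against 0.761 (0.757 to 0.768) in members, and 42.5% met both island criteria against 67.6%. The 23 members in hosts 900 to 1000 bp from the nearest coding start had a median width of 397 bp, and the 48 ATAC-seq peaks inside H3K4me3 peaks over 1000 and up to 1100 bp away had 469.5 bp. Of the hosts, 97.5% contained a coding start, so the 1-kb window admitted few.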

How the data were processed

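ATAC-seq and H3K4me3 ChIP-seq of F123 mouse embryonic stem cells were used as 2 deposited peak lists. For ATAC-seq the authors aligned reads to mm10 with Bowtie 1.1.2, removed duplicates and mitochondrial reads with SAMtools, shifted read ends by 4 bp, called peaks with MACS2 2.1.1.20160309 at a p-value threshold of 0.01 with summit calling, and kept with bedtools 2.27.1 the pooled peaks present in both replicates, and the list holds positions alone. Where a wide accessible stretch ends or divides can depend on the calling threshold, and this was not tested. The H3K4me3 list came from the ENCODE histone pipeline run by the authors, and its aligner and caller versions are not given in the sources used here. Its deposited columns are the position, a display score, the signal value as a fold (ratio) over background, -log10 of the p-value and of the q-value, and the summit offset. Both lists join the replicates, so depth and replicate spread are unknown.

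Overlaps were computed in Python 3.11.15 with numpy 2.4.6 and pandas 2.3.3, intervals with scipy 1.17.1, and sequence was read from the GRCm38.p6 (mm10) assembly with pysam 0.24.0. Gene models were GENCODE mouse release 21, and every peak end on the placed chromosomes lay inside the mm10 chromosome lengths. All starts of protein-coding transcripts were used. The rule was checked with bedtools 2.31.1, which gave the same 16568 members (0 differed), and the functions were tested on simulated data. The members, gene lists and motif words were chosen with earlier results of these data known. Named genes were the 5 hosts with the most members, the 5 widest members, every pluripotency gene, and of each other list the 3 genes with the most members and up to 3 without any, and some of these are not reported here. The statistics were Wilson intervals at the 95% level and medians, with no test and no replicate. Alternatives were another containment rule, window, start set, H3K4me3 threshold, ATAC-seq width filter, merging of rows and chromosome set. The PLAC-seq samples and input were not used here.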

Additional observations from a re-analysis of the deposited data

How the results depend on the processing

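Of 63 values recomputed under 7 alternatives, 34 stayed within the interval of the reported value (or, for the number of members, within 1.5 times it) and 29 did not, most of them by a small amount. The number of members stayed between 13447 and 19414. With the midpoint of the ATAC-seq peak inside the H3K4me3 peak, 91.3% of promoter peaks held a member, 69.5% of members covered a coding start, 65.0% covered the summit, the distance to the summit was 0.220 kb and the CpG ratio of whole members 0.681, against 0.699. With 500 bp either side of a start, 79.2% of promoter peaks held a member, and with H3K4me3 peaks of a -log10 q of at least 20, 83.4%. With 1 start per gene, 79.7% of promoter peaks held a member, the width was 773 bp, 64.1% covered the start, the distance to it was 0.239 kb, 64.4% covered the summit and the CpG ratio was 0.709. With the widest 50% of ATAC-seq peaks, 74.8% of promoter peaks held a member, 14.4% of hosts held 2 or more, the width was 859 bp, 82.1% covered a start, the distances were 0.123 kb to the start and 0.184 kb to the summit, 77.8% covered the summit and the CpG ratio was 0.729. With ATAC-seq rows less than 150 bp apart merged, these values were 75.5%, 18.7%, 856 bp, 76.7%, 0.143 kb, 0.203 kb, 72.7% and 0.711. The last 2 alternatives remove or absorb narrow peaks by construction. With chromosomes X and Y included, all 9 values stayed within their intervals. No paired analysis was possible because each assay has 1 peak list that joins its replicates, and for the same reason no replicate could be left out. Depth is unknown, so for the 404 promoter peaks without any ATAC-seq overlap, closed DNA cannot be told apart from an accessible stretch that was missed, and the other 2979 without a member were touched by a called peak that the containment rule left out.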

Other observations

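On chromosome X, left out of the rule, 396 of 560 promoter H3K4me3 peaks (70.7%, 66.8 to 74.3) held an ATAC-seq peak wholly inside them, against 73.4% on the lowest autosome. The 537 peaks had a median width of 728 bp, 878 bp where they covered a coding start and 262 bp where they did not, and 69.5% covered one. Their median distance to the H3K4me3 summit was 251 bp. Chromosome Y had 4 promoter H3K4me3 peaks, of which 3 held 4 such peaks.

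Among the 16568 members, 363 lay in hosts that contain no coding start but come within 1 kb of one, and had a median width of 380 bp (332 to 416).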
